A study of Homo sapiens with 2 samples.

Results

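Transcripts of 8 histone genes were examined in untreated SH-SY5Y cells, of 33538 gene rows in the count table. Of these, 7 belong to the replication-dependent class by name (H4C3, H1-2, H1-3, H1-4, H1-5, H2AC6 and H2BC12), and H1-10 is a linker histone outside it. The genes were chosen by symbol, with earlier results of these data known, and the study's text lists H4C3 among its most variable genes. SH-SY5Y is an established human neuroblastoma line. Cells of 1 culture were grown in 2 flasks, SplitA and SplitB, were not synchronized, were tagged with 1 of 2 hashtag antibodies and were read together as 1 droplet library of 3′ transcript ends. The labels give both hashtags the same split number, so naming the flask of hashtag 1 SplitA and that of hashtag 2 SplitB follows the study's text. A cell was assigned to a flask when one hashtag reached at least 3 times the other and the other stayed under a fixed limit, and it was kept when at least 1000 genes had a unique molecular identifier (UMI). Of 2879 cells, 899 of SplitA and 1195 of SplitB were kept, with 5852780 and 8066440 UMIs and with medians of 6063 and 6346 UMIs per cell. No cell barcode was shared between the flasks.

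Histones package DNA. Core histones of the H2A, H2B, H3 and H4 families form the nucleosome, and linker histones of the H1 family bind where DNA enters and leaves it. The replication-dependent genes lie in clusters and are transcribed mainly while DNA is copied, and their messenger RNAs typically end in a short stem-loop instead of a poly(A) tail. The stem-loop is bound by SLBP, and the RNAs are degraded when replication stops. The droplet chemistry primes on poly(A), so a UMI of such a gene counts only what that priming captured, and levels of different histone genes need not stand in the ratio of their RNAs.

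The stem-loop sequences are shown because they distinguish the RNA end of H1-10 from those of the other 7 genes. In the first 200 bases past the stop codon (GRCh38, GENCODE release 44 gene models), a stem-loop was found in all 7 replication-dependent genes. In the lines below, capitals mark the stem and loop, lower case marks 5 flanking bases on each side, and each is written in the gene's own direction.
H4C3: ccaaaGGCCCTTTTCAGGGCCgctca
H1-2: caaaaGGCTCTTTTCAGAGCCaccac
H1-3: taaacGGCTCTTTTCAGAGCCaccca
H1-4: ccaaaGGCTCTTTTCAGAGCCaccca
H1-5: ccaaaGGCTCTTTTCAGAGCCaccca
H2AC6: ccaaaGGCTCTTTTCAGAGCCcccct
H2BC12: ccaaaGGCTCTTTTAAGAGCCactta

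These lie on the plus strand at chr6:26104312-26104337 for H4C3, chr6:26157090-26157115 for H1-4 and chr6:26124664-26124689 for H2AC6. On the minus strand they lie at chr6:26055739-26055764 for H1-2, chr6:26234212-26234237 for H1-3, chr6:27866792-27866817 for H1-5 and chr6:27146361-27146386 for H2BC12. H1-4 and H1-5 had the same letters over the whole stretch. The form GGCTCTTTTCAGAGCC was the commonest, in 38 of the 64 replication-dependent genes with a match (of 69 annotated), the form of H4C3 was found in 10 and that of H2BC12 in 9. For 6 of the 7 genes the annotated RNA stopped at the stem-loop. The models of H2AC6 ran 14432 genomic bases past it, and an AATAAA polyadenylation signal lay 745 bases past it. An AATAAA lay 12 bases past the stem-loop of H1-2, 160 past that of H4C3, 806 past that of H1-5 and 851 past that of H1-3. None was found for H1-4 and H2BC12 in the stretch searched. H1-10 (chr3:129314771-129316286, minus strand) had no such stem-loop and had an AATAAA 468 bases after its stop codon, within its annotated end.

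H4C3, 1 of the genes encoding histone H4, supplied most of the replication-dependent histone UMIs. Of 37459 UMIs on these genes in the kept cells, H4C3 held 33307, or 88.9%. Of the 65 replication-dependent gene rows, 49 had a UMI and 16 had none, and the other 14 H4 genes together held 207 UMIs. Most genes of the H4 family encode the same protein and are alike in their coding part, so how reads shared among them were assigned could move UMIs between them. H4C3 stood at 2378 UMIs per 1000000 (CPM; exact 95% Poisson interval 2338 to 2418) in SplitA and 2404 (2370 to 2438) in SplitB, ranks 88 and 87 among all genes. Poisson and binomial intervals here cover counting error only.

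H1-10 was the other abundant gene, at 802 CPM (780 to 826) in SplitA and 753 (734 to 772) in SplitB, ranks 160 and 167. The remaining genes were rare. H1-2 stood at 35.0 and 41.4 CPM in SplitA and SplitB, and H2AC6, an H2A gene, at 16.4 and 20.7. H1-3 stood at 6.32 and 5.21, H1-5 at 5.47 and 2.73, H1-4 at 1.88 and 2.85, and H2BC12, an H2B gene, at 1.54 and 1.86. The last 4 rested on 79, 54, 34 and 24 UMIs in all, so that a small count limits every statement on them. The flasks cannot be tested against each other as 1 against 1. H4C3 was found in 80.5% of SplitA cells and 80.6% of SplitB cells, and in 57.8% and 58.7% after each cell was thinned to 2000 UMIs. H1-10 was found in 95.9% and 94.9%, and in 77.8% and 73.0% after thinning.

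Levels were next compared across the cell cycle. Each cell was given an S score and a G2M score from lists of S and G2M genes that hold none of the 8 genes. A cell counts as G1 when neither score is above 0, and otherwise takes the phase of its higher score. SplitA held 370 G1, 278 S and 251 G2M cells, and SplitB 508, 344 and 343. Median depth was higher in G2M cells (7049 and 6968 UMIs) than in G1 cells (5819.5 and 6121) or S cells (5896 and 6090.5). A call of phase is made from expression alone, and 200 cells had a score within 0.02 of a cut. UMIs were summed per flask and phase, and these 6 sums were fitted with edgeR's quasi-likelihood test with Benjamini-Hochberg adjustment. Flask was a term of the fit, so a difference shared by all phases of a flask does not enter the p-values. They rest only on counting error and on how far phase differences vary between 2 flasks of 1 culture in 1 library, which may be technical.

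In S against G1, 10.7% of the 10571 genes tested were called higher and 9.21% lower at an adjusted p under 0.05. Of the 8 genes, 6 passed the filter on low counts. That filter needs enough UMIs in only part of the 6 sums. H1-3 and H1-5, rare in G1 cells, passed through their S and G2M sums, so being tested depended in part on the difference tested. Without the filter, their log2 folds of S against G1 were 4.57 and 3.51 (edgeR's quasi-likelihood test, adjusted p = 9.38e-12 and 2.00e-06). H4C3, H1-3, H1-5 and H1-10 were higher in S, H1-2 and H2AC6 were lower, and H1-4 and H2BC12 were not tested. In G2M against G1, where 15.7% of genes were called higher and 15.4% lower, the same 4 were higher and the same 2 lower. In S against G2M (3.94% higher, 3.87% lower), none was higher, H4C3 and H1-10 were lower and 4 were not called. The median log2 fold over all genes tested was 0.00 in S against G1 and 0.03 in G2M against G1.

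**Figure D1:**
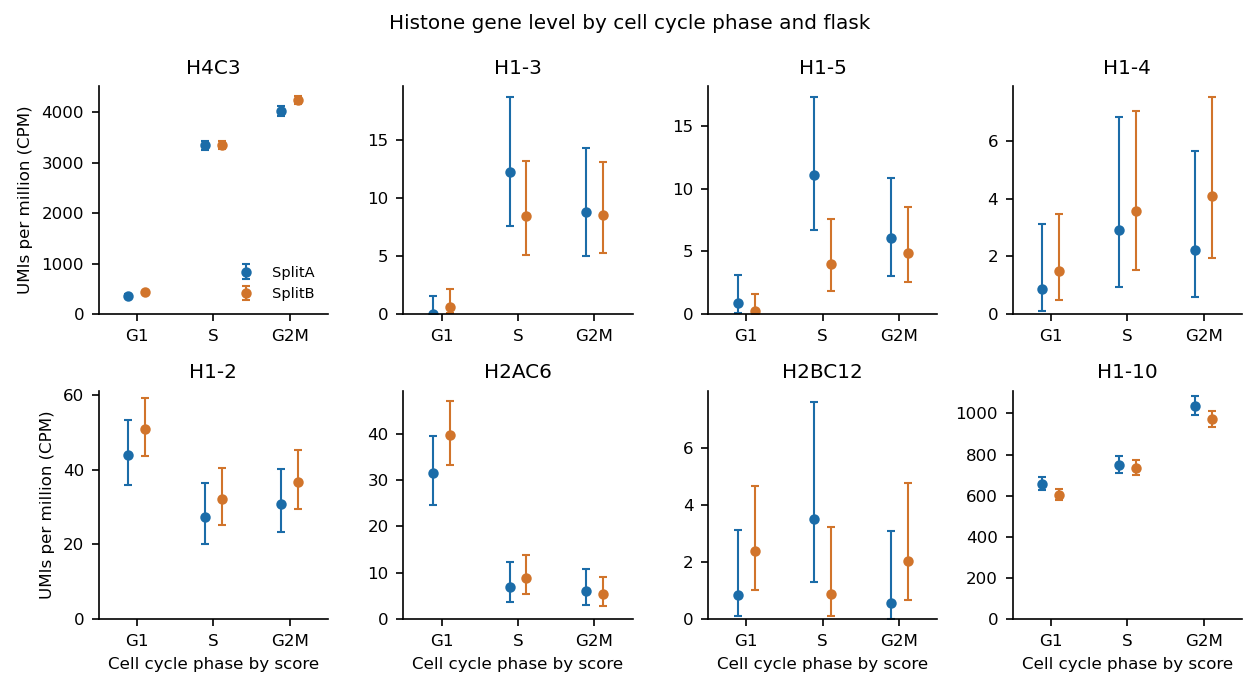
Level of the 8 genes in CPM (vertical axis, linear from 0, one scale per gene) in G1, S and G2M cells of SplitA (blue) and SplitB (orange), with exact 95% Poisson intervals of the summed UMIs as bars. H4C3 sits at 370 and 439 in G1 cells and at 3349 and 3355 in S cells, while H2AC6 sits at 31.4 and 39.7 in G1 cells and under 10 elsewhere.

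H4C3 was low in G1 cells, high in S cells and slightly higher still in G2M cells. Its CPM was 370 (345 to 395) in SplitA and 439 (417 to 462) in SplitB in G1 cells, 3349 and 3355 in S cells, and 4031 and 4243 in G2M cells. The 3 phases did not overlap between flasks. The ratio of S to G1 was 9.06 (8.43 to 9.74) in SplitA and 7.64 (7.23 to 8.09) in SplitB, and that of G2M to G1 was 10.9 (10.2 to 11.7) and 9.67 (9.15 to 10.2). The fitted log2 fold was 2.96 (SE 0.035) for S and 3.22 (SE 0.034) for G2M against G1. Each had an adjusted p too small for the software to represent in edgeR's quasi-likelihood test. With an updated list of cycle genes, the same test gave an adjusted p of 1.39e-34 for S. The S fold was 3.09 in SplitA alone and 2.86 in SplitB alone, and the intervals of the S to G1 ratio did not overlap. The SE draws on a spread estimated across genes and does not measure this gap between the flasks. S against G2M gave -0.26 (SE 0.027, edgeR's quasi-likelihood test, adjusted p = 3.53e-20).

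H4C3 was thus not restricted to cells called S. S cells held 41.3% of H4C3 UMIs in SplitA and 38.9% in SplitB, against 29.3% and 27.8% of all UMIs. G2M cells held 52.6% and 53.5%, against 31% and 30.3% of all UMIs. G1 cells held 6.17% and 7.64%, against 39.7% and 41.9% of all UMIs. A UMI of H4C3 was still found in 38.6% and 42.4% of G1 cells thinned to 2000 UMIs, against 66.4% and 68.6% of S cells and 76.5% and 72.8% of G2M cells. No cell type lacking H4C3 is present to set the level that free RNA in the droplets would give, so the part of free RNA in the G1 value was not tested.

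The 2 scores together placed H4C3 more sharply than the phase call. The following 4 classes were formed after the data had been seen. Cells with both scores above 0 (282 in SplitA and 335 in SplitB) had 5420 CPM (5316 to 5526) and 5636 (5539 to 5734). Cells with the S score alone above 0 (139 and 200) had 1504 and 1769, cells with the G2M score alone (108 and 152) had 1859 and 2453, and cells with neither, the G1 cells, had the lowest level. The class with both scores held 74.3% and 66.7% of all H4C3 UMIs but 32.6% and 28.5% of all UMIs. Its level was 3.60 times (3.40 to 3.82) that of the S score alone in SplitA and 3.19 times (3.05 to 3.33) in SplitB. It was 2.92 times (2.76 to 3.08) and 2.30 times (2.20 to 2.40) that of the G2M score alone. The order of the 4 classes was the same in both flasks. The median depth of cells with both scores was 6641 and 6698 UMIs, and doublets of 2 cells from the same flask carry 1 hashtag and cannot be told apart from single cells here.

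Splitting the cells called S at their median G2M score largely repeats the class with the S score alone, so it is not a further result. In SplitA the S cells at or below that median are that class (139 cells), and in SplitB they are 172 of its 200 cells. In SplitA they had 1504 CPM of H4C3 and those above the median had 5090, and in SplitB the values were 1504 and 5263. When the cells of a flask were ranked by S score and cut into 5 equal groups, H4C3 rose from the lowest group to the highest through 353, 543, 2297, 4155 and 4651 CPM in SplitA and through 327, 488, 2217, 4478 and 4520 in SplitB. In the same 5 groups by G2M score it reached its highest value in the group next to the top, at 5399 and 5985 CPM, and was lower in the top group, at 3502 and 3213. The cells of the highest G2M scores were therefore not the cells of the highest H4C3.

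**Figure D2:**
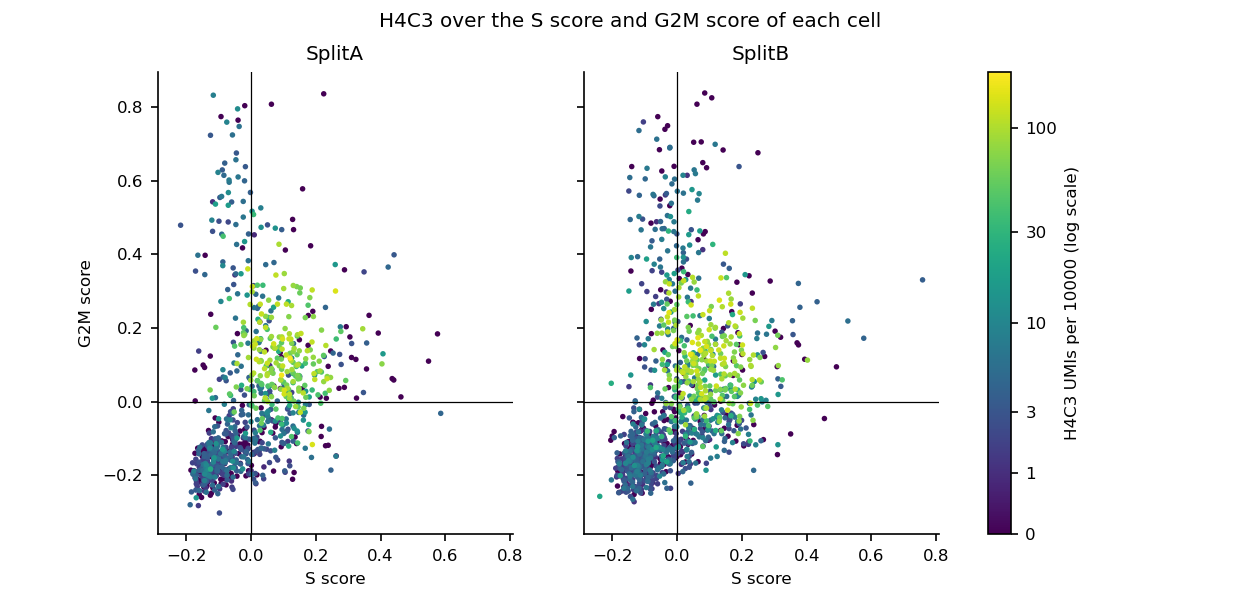
Each point is a cell of SplitA (left, 899 cells) or SplitB (right, 1195 cells), placed by its S score (horizontal) and G2M score (vertical, no unit) and coloured by H4C3 UMIs per 10000 on a log scale; the lines mark a score of 0. The yellow and green cells of high H4C3 lie mostly where both scores are above 0 and the G2M score is moderate, and few lie at the lower left or at the top.

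Per cell, H4C3 was distributed in a low and a high mode. A limit of 20 UMIs per 10000, set after the data had been seen, separated 225 cells of SplitA (25%) and 291 of SplitB (24.4%). Above the limit the median was 70.8 and 73.6 per 10000, below it 2.78 and 2.56, and 18 and 31 cells lay between 15 and 25. These high cells held 88.0% and 88.2% of H4C3 UMIs and 29.9% and 29.6% of all UMIs. The highest cell reached 187 per 10000 in SplitA and 162 in SplitB, and 175 and 232 cells had no H4C3 UMI. High cells were deeper, with medians of 7164 and 7542 UMIs against 5731 and 5892 in the others, and their mitochondrial share was close to that of the others (8.59% and 8.64% against 8.65% and 8.91%).

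The high mode was the larger one only in cells with both scores above 0. There, 62.4% (exact binomial 95% interval 56.5 to 68.1) of SplitA cells and 59.4% (53.9 to 64.7) of SplitB cells were high. With the S score alone 18.0% and 20.5% were high, with the G2M score alone 20.4% and 25%, and with neither 0.541% and 2.56%. Even in cells with both scores, 40 of SplitA and 43 of SplitB had no H4C3 UMI. At 2000 UMIs per cell the variance of H4C3 over cells was 11.1 times its mean in SplitA and 12 times in SplitB, where counting alone gives about 1. The ratio was 1.31 in SplitA and 1.34 in SplitB for H1-10, and 0.974 and 1.48 for H1-2. H2AC6 had 1.11 in SplitB, and every other value of the remaining 5 genes lay between 0.973 and 1. These 5 had means of 0.00111 (H1-4 in SplitA) to 0.0352 (H2AC6 in SplitB) UMIs per thinned cell. At such means the ratio stays near 1 even for a gene that varies between cells. It therefore does not show whether these 5 vary beyond counting error.

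**Figure D3:**
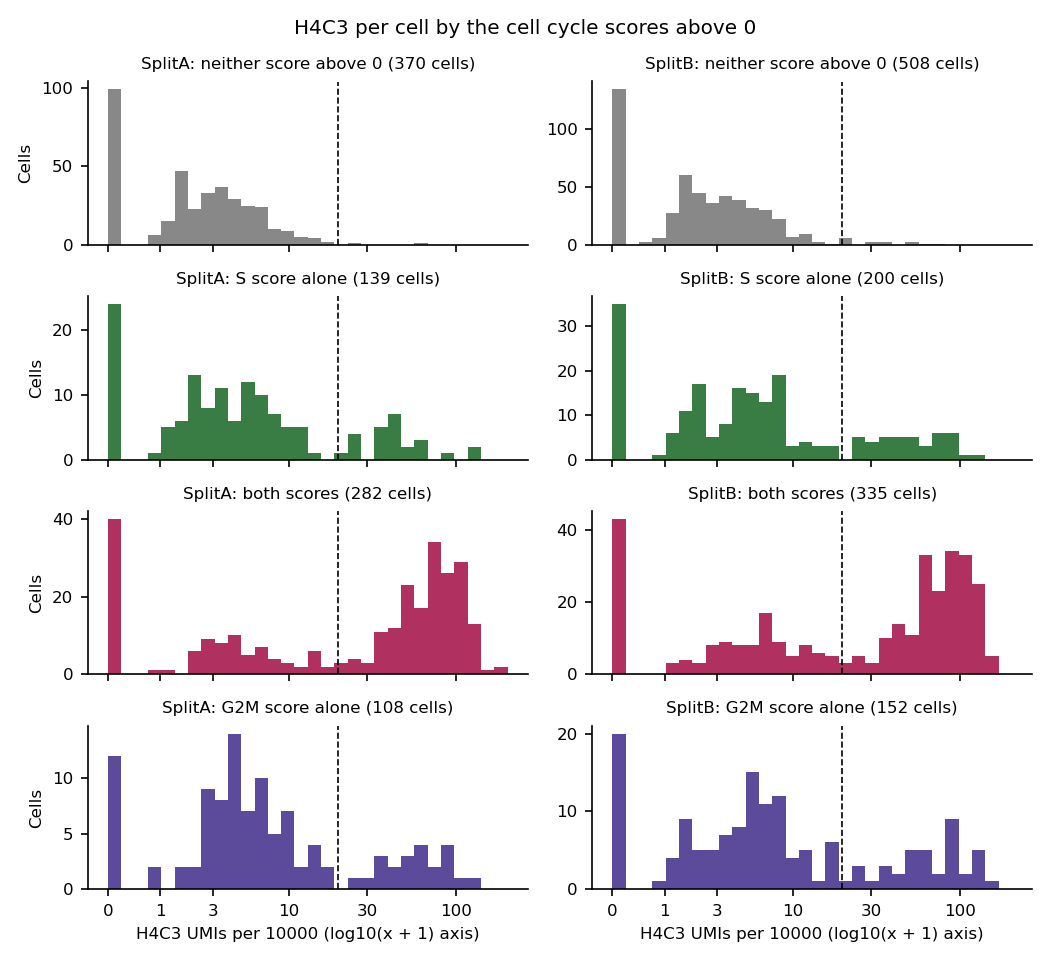
Number of cells (vertical) by H4C3 UMIs per 10000 (horizontal, spaced as log10 of the value + 1) for the 4 score classes in SplitA (left) and SplitB (right); the dashed line is the limit of 20 per 10000. Cells with both scores above 0 have a large peak to the right of the line, and cells with neither score above 0 lie almost wholly to its left, with 2 and 13 cells past it.

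Among the linker histones of the replication-dependent class, H1-3 and H1-5 moved in the same direction as H4C3. H1-3 had 0 UMIs in SplitA G1 cells and 2 in SplitB G1 cells, 21 and 19 in S cells and 16 and 21 in G2M cells. The S level was 12.2 CPM (7.58 to 18.7) in SplitA and 8.46 (5.10 to 13.2) in SplitB, and G1 cells lay below both. Against a floor of 3 counts in SplitA G1 cells, H1-3 was at least 9.49-fold higher in S, and in SplitB the ratio was 14.3 (3.45 to 126). The fitted log2 fold of S against G1 was 4.57 (SE 0.657, edgeR's quasi-likelihood test, adjusted p = 1.09e-10), a value that depends on the prior count because a sum is 0. It was 3.66 in SplitB alone and 7.57 in SplitA alone, where the G1 sum is 0.

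H1-5 had 2 and 1 UMIs in G1 cells of SplitA and SplitB, 19 and 9 in S cells and 11 and 12 in G2M cells. The ratio of S to G1 was 12.9 (3.11 to 114) and 13.5 (1.88 to 593), wide intervals that lie above 1. Its log2 fold was 3.51 (SE 0.686, edgeR's quasi-likelihood test, adjusted p = 5.08e-06) in S and 3.10 (SE 0.722, adjusted p = 0.000137) in G2M against G1. The G2M fold was 3.75 in SplitB alone and 2.60 in SplitA alone. Neither gene was called between S and G2M. The intervals of the S to G2M ratio were 0.691 to 2.85 and 0.501 to 1.93 for H1-3 and 0.827 to 4.25 and 0.304 to 2.11 for H1-5, so differences within those bounds were not detectable at this depth.

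H1-4 had 2 and 5 UMIs in G1 cells, 5 and 8 in S cells and 4 and 10 in G2M cells, and did not pass the filter. In a fit without the filter its log2 fold of S against G1 was 1.31 (SE 0.718, edgeR's quasi-likelihood test, adjusted p = 0.313). H2BC12 had 2 and 8 UMIs in G1 cells, 6 and 2 in S cells and 1 and 5 in G2M cells, and its log2 fold in the same fit was 0.14 (SE 0.823, adjusted p = 0.989). The flasks went in opposite directions for H2BC12, and neither gene has the counts to show a difference.

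H1-2 was lower in S and G2M cells than in G1 cells. Its CPM was 43.9 (35.8 to 53.3) and 50.9 (43.6 to 59.2) in G1 cells, 27.4 and 32.1 in S cells and 30.9 and 36.8 in G2M cells of SplitA and SplitB. The lowest G1 value exceeded the highest S and G2M values. The log2 fold was -0.75 (SE 0.161, edgeR's quasi-likelihood test, adjusted p = 4.36e-05) in S and -0.60 (SE 0.152, adjusted p = 0.000512) in G2M against G1. The call did not hold with DESeq2, where the adjusted p was 0.110 and 0.168 (range over all alternatives 1.68e-05 to 0.110 and 1.86e-05 to 0.168). H1-2 did not fall steadily over the 5 groups by G2M score. Its CPM went through 46.1, 40.8, 23.0, 46.4 and 19.7 in SplitA and through 53.7, 44.7, 31.1, 42.7 and 33.7 in SplitB.

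H2AC6 had the largest fall of the 6 genes tested. In G1 cells it stood at 31.4 CPM (24.6 to 39.5) in SplitA and 39.7 (33.3 to 47.0) in SplitB, in S cells at 7.0 and 8.91, and in G2M cells at 6.06 and 5.32. G1 cells held 76.0% and 80.2% of its UMIs, against 39.7% and 41.9% of all UMIs. The ratio of G1 to S was 4.49 (2.42 to 9.08) and 4.46 (2.77 to 7.53), and that of G1 to G2M was 5.18 (2.73 to 10.8) and 7.47 (4.22 to 14.4). The log2 fold was -2.23 (SE 0.239, edgeR's quasi-likelihood test, adjusted p = 6.65e-19) in S and -2.79 (SE 0.254, adjusted p = 2.22e-26) in G2M against G1. In the 5 groups by S score its CPM went through 39.6, 24.8, 5.77, 7.29 and 3.75 in SplitA and through 44.8, 37.2, 8.68, 6.96 and 6.89 in SplitB.

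The promoters of H1-3, which rose in S, and H2AC6, which fell, are shown beside each other (RefSeq, GRCh38.p14, 250 bases before to 50 after the start). Capitals mark the TATA box (searched as TATAAA), the CCAAT box (searched by these letters) and the octamer (searched as ATTTGCAT). Both strands were searched, so that a capital run may be the reverse complement of these letters.
H1-3: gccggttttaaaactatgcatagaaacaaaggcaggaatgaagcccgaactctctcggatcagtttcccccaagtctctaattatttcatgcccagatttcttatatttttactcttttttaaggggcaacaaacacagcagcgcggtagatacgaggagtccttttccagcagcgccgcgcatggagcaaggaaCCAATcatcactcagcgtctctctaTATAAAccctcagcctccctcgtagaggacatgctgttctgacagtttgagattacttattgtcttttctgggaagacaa
H2AC6: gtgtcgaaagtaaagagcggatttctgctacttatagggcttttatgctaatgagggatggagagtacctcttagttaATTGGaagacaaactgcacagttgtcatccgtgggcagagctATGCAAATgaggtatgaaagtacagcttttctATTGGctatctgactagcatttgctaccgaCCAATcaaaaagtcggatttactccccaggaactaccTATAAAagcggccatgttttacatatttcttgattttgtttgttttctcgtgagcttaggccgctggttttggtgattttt

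They lie at chr6:26234938-26235237 on the minus strand and chr6:26123922-26124221 on the plus strand. Both held a TATAAA, at -30 from the start in H1-3 and -31 in H2AC6. H1-3 had 1 CCAAT, at -55, and H2AC6 had 3, at -172, -98 and -68, and an octamer at -130. TATAAA was found in 11.5% of 35116 promoters and 66.2% of 68 histone promoters, CCAAT in 34.6% and 85.3%, and the octamer in 1.77% and 39.7%. Promoters of 7 of the 8 genes were matched, not that of H4C3. A match of letters is a description and not a bound site.

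H1-10, which is expressed independently of replication, was present in every phase and was highest in G2M cells. Its CPM was 658 (626 to 692) and 603 (577 to 630) in G1 cells, 749 and 737 in S cells and 1036 (990 to 1084) and 974 (935 to 1014) in G2M cells of SplitA and SplitB. The G2M values lay above all others, and the S values above the G1 values. The G2M to G1 ratio was 1.57 (1.47 to 1.69) and 1.61 (1.52 to 1.71), with a log2 fold of 0.55 (SE 0.041, edgeR's quasi-likelihood test, adjusted p = 1.50e-39). For S against G1 the log2 fold was 0.16 (SE 0.043, edgeR's quasi-likelihood test, adjusted p = 0.00191). That call was lost with DESeq2, with thinned cells and with a minimum of 500 genes, and the adjusted p ranged from 0.000308 to 0.838 over the alternatives. The S fold was 0.10 in SplitA alone and 0.21 in SplitB alone. In the 5 groups by G2M score H1-10 stood at 641, 708, 710, 878 and 1044 CPM in SplitA and 514, 686, 684, 891 and 985 in SplitB.

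Another 11 replication-dependent genes had at least 50 UMIs. In S against G1, 2 of these were higher (H2AC20 and H2BC15, log2 fold 1.33 and 0.72), 3 were lower (H2AC25 -1.15, H2BC5 -1.46 and H3C10 -2.20) and 6 were not called by edgeR's quasi-likelihood test, where 10.7% of all genes were called higher and 9.21% lower. With DESeq2, which called 632 genes in either direction, none was higher and 2 were lower. H2AC25, an H2A gene on chromosome 1, stood at 140 and 133 CPM in G1 cells of SplitA and SplitB, 61.8 and 67.3 in S cells and 55.1 and 49.1 in G2M cells. H2BC5 stood at 34.9 and 29.3 in G1 cells and 13.4 and 11.1 in S cells. H2AC20 stood at 6.46 and 5.33 in G1 cells and 14.6 and 16.0 in S cells. A further 31 such genes with 1 to 49 UMIs held 338 UMIs together.

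The annotated RNA ends of these genes were set beside the calls after the data had been seen, as a description with no test. Of all genes tested, 10.7% were called higher in S than in G1 and 9.21% lower. Of the 6 genes with 50 or more UMIs whose annotated RNA runs more than 50 bases past the stem-loop, 4 were lower in S than in G1 (H2AC6, H2AC25, H2BC5 and H3C10), 2 were not called and none was higher. H2AX, which is outside the class by name, goes the other way. It has a stem-loop and models that run 1024 genomic bases past it, and it was called higher in S, with a log2 fold of 1.83. Of the 9 that end at the stem-loop, 4 were higher (H4C3, H1-3, H1-5 and H2AC20), 1 was lower (H1-2) and 4 were not called. H2BC15, with no stem-loop match in the 200 bases past its stop codon, was higher. Its models run 3575 genomic bases past that stop codon, so it is a gene with a long annotated end that rose by edgeR. With DESeq2's Wald test the calls of H2BC15 (adjusted p = 0.596), H2AC20 (0.151) and H1-2 (0.110) were lost. H3C10 had no adjusted p there, and the other calls named in this comparison held. The stop codon was that of the model with the longest coding part, and no other was searched. Which RNA form each UMI came from was not tested, since the table gives 1 count per gene.

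**Figure D4:**
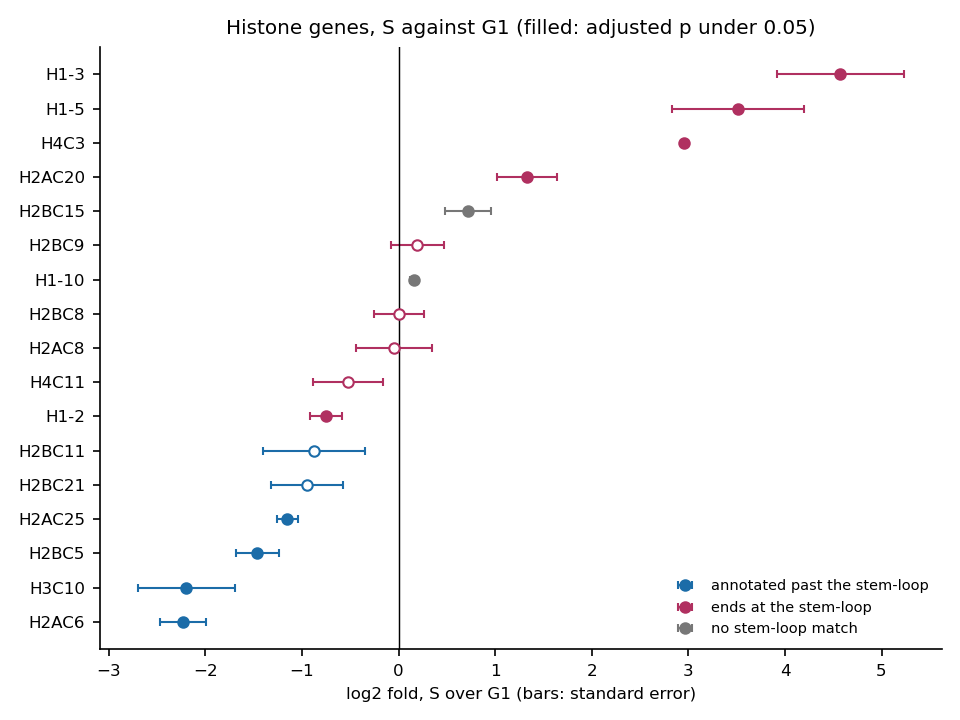
Log2 fold of S over G1 (horizontal) for the 16 replication-dependent genes with 50 or more UMIs and H1-10, with standard errors as bars; filled points have an adjusted p under 0.05, and colour gives the annotated RNA end. Genes annotated past the stem-loop (blue) all have values below 0, down to -2.23 for H2AC6, and H1-3, H1-5 and H4C3 at the top end at the stem-loop (red). H2BC15 and H1-10, with no stem-loop match (grey), have values above 0.

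Co-expression with H4C3 was followed within each flask through the cells of high H4C3. These held 89.2% (74.6 to 97.0) and 90.5% (77.4 to 97.3) of H1-3 UMIs and 84.4% (67.2 to 94.7) and 90.9% (70.8 to 98.9) of H1-5 UMIs, against 29.9% and 29.6% of all UMIs. H1-4, which did not pass the filter in the comparison of phases, had 8 of 11 UMIs in high cells of SplitA and 16 of 23 in SplitB, or 72.7% (39.0 to 94.0) and 69.6% (47.1 to 86.8). H1-10 was slightly above the share of all UMIs, at 35.4% (34.0 to 36.8) and 36.0% (34.8 to 37.2). H1-2 was near it, at 34.6% (28.1 to 41.6) and 29.3% (24.5 to 34.5). H2AC6 was far below it, at 6.25% (2.33 to 13.1) and 5.39% (2.49 to 9.98). Only 2 high cells of SplitA and 13 of SplitB were G1 cells, so these shares partly repeat the differences between phases. H2BC12 had 4 UMIs in high cells of each flask.

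**Figure D5:**
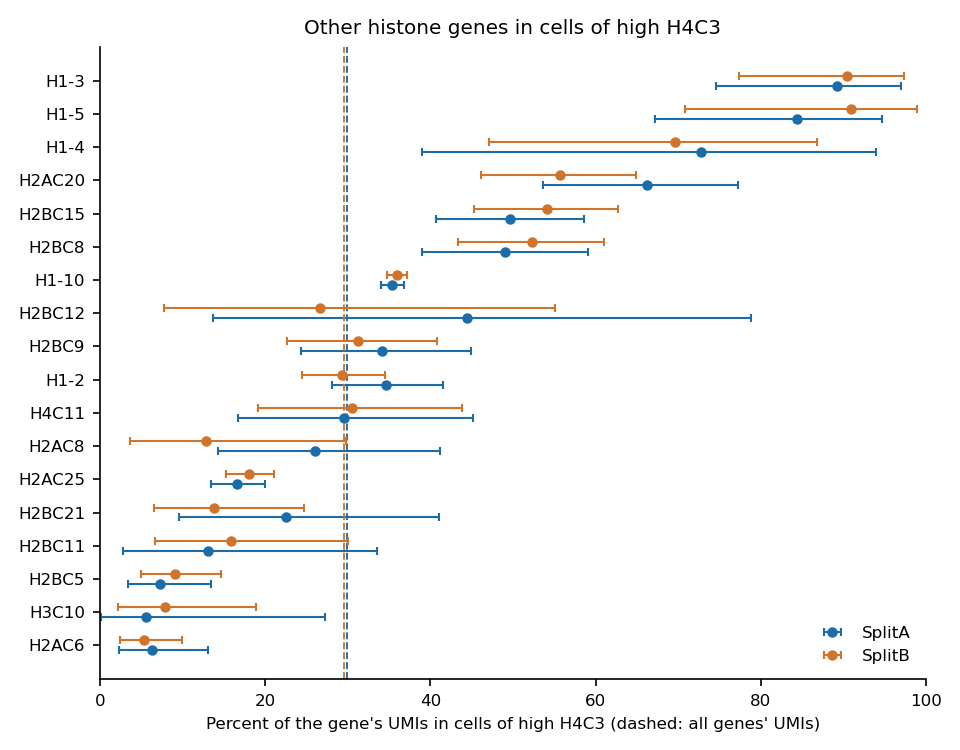
Percent of each histone gene's UMIs (horizontal) that lay in cells with at least 20 H4C3 UMIs per 10000, in SplitA (blue) and SplitB (orange), with exact binomial 95% intervals; dashed lines mark the share of all UMIs, 29.9% and 29.6%. H1-3, H1-5, H1-4, H2AC20, H2BC15, H2BC8 and H1-10 have intervals to the right of the lines in both flasks and H2AC6, H3C10, H2BC5 and H2AC25 to their left.

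Correlations over cells were weak to moderate and are given without a test, since the cells share 1 library. Pearson's r of log-normalized values with H4C3 was 0.284 and 0.260 for H1-3 (899 and 1195 cells of SplitA and SplitB), 0.264 and 0.274 for H1-10, and 0.228 and 0.203 for H1-5. It was 0.0855 and 0.121 for H1-4, 0.0535 and 0.0605 for H1-2, 0.0112 and 0.0186 for H2BC12, and -0.121 and -0.169 for H2AC6. Spearman's rho for H1-3 was 0.264 and 0.235. In the 278 and 344 S cells alone, r was 0.169 and 0.165 for H1-2 and -0.0385 and -0.0811 for H2AC6. It was 0.281 and 0.2265 for H1-3, 0.315 and 0.181 for H1-5, and 0.280 and 0.217 for H1-10. For H1-4 it was 0.116 and 0.0843, and for H2BC12 0.0315 and -0.0264. After thinning, all 12 SplitA cells and all 11 SplitB cells with an H1-3 UMI also had an H4C3 UMI, where independence gives 6.94 and 6.45.

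The genes whose pattern was most like that of H4C3 were found by mean r over the flasks, over 5190 genes that were detected in no fewer than 10% of the cells in each flask. The first was PCLAF, a partner of the replication clamp, with r of 0.478 and 0.474, followed by MYBL2, a cell cycle transcription factor, with 0.432 and 0.414. Also among the 10 were HMGB2, H2AZ1, H2AX, SIVA1, DEK, CKS1B and CENPX, the last with 0.367 and 0.383. HMGB2 and CKS1B are in the G2M list and none of the 10 is in the S list. These genes share cells, depth and library with H4C3. H1-10 ranked 49th by this measure, and H1-2 and SLBP stood at ranks 1508 and 1035.

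Histone genes outside the replication-dependent class gave a mixed picture. Of 10 listed, 9 were tested and H2AJ had no UMI. In S against G1, edgeR called 5 higher and 2 lower, against 10.7% and 9.21% of all genes, and 2 were not called. The median log2 fold was 0.53 against 0.00 over all genes. DESeq2 gave the same counts, where it called 632 genes in either direction. Without CENPA, the centromeric H3, which is in the G2M list and was used to call the phase, 4 of 8 were higher and the median was 0.41. H2AX, the variant that is phosphorylated at DNA breaks and whose gene also carries a stem-loop, rose by 1.83, and H2AZ1, an H2A.Z gene, by 1.18. H3-3B, an H3.3 gene, was lower by -0.30. In G2M against G1, H2AX and H2AZ1 rose further, by 2.64 and 1.45. In S against G2M, edgeR called 5 of the 9 lower and 0 higher, against 3.87% and 3.94% of all genes, and DESeq2 called 4 lower. The 5 included CENPA, H2AX (-0.81) and H2AZ1 (-0.26). Since CENPA was used to call G2M cells, its difference is a description. Without it edgeR called 4 of 8 lower and DESeq2 called 3 lower.

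Genes that make and process replication-dependent histone RNA were also examined. Of 14 listed, 13 were tested (TUT7 was not), 5 were higher in S than in G1, none was lower and 8 were not called, with a median log2 fold of 0.59, where 10.7% of all genes were called higher. Outside the lists used to call the phase, 3 of 11 were higher by edgeR's quasi-likelihood test and none by DESeq2, with a median of 0.45. SLBP, which binds the stem-loop, and CASP8AP2, a processing factor, are in the S list, so that their log2 folds of 1.39 and 1.75 are a description. NPAT, the activator of histone gene transcription, stood at 1.47, ZNF473 at 1.39 and CPSF3, the cleavage enzyme, at 0.70.

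Of 12 histone chaperone and supply genes, edgeR called 10 higher in S than in G1, against 10.7% of all genes. None was lower and 2 were not called, with a median log2 fold of 0.80. DESeq2 called 7 higher, where it called 632 genes in either direction. CHAF1B and NASP are in the S list, and without them 8 of 10 were higher, with a median of 0.63, and DESeq2 called 5. The largest was ASF1B, a chaperone of H3 and H4, at 3.28. CHAF1B and CHAF1A, subunits of the assembly factor that places new H3 and H4 on copied DNA, stood at 2.55 and 2.40. NASP stood at 1.67 and HAT1, which acetylates new H4, at 1.16. In S against G2M, where 3.94% of all genes were called higher, CHAF1A was the only one of the 10 outside the S list called higher, by 0.62, and that call was lost with DESeq2 (adjusted p = 0.297).

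Identity of the cells was checked with markers. All 8 adrenergic neuroblastoma markers had UMIs, with a summed level of 2337 and 2265 CPM. TH was nearly absent, with 9 UMIs in each flask (1.54 and 1.12 CPM), and was not tested. The adrenergic markers moved with the phase too, as 6 of 7 tested were lower in S than in G1 (CHGA by -0.84). Of 6 mesenchymal-like markers 5 had UMIs (121 and 152 CPM), most from VIM, which was lower in S by -0.97. Of 5 markers of other cells 2 had UMIs (3.59 and 3.72 CPM), and PTPRC, PECAM1 and HBB were at 0. The part of these marker changes in the histone differences was not tested.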

How the data were processed

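Untreated SH-SY5Y cells were measured as 1 droplet library with flask hashtags. The authors deposited raw UMI counts per gene and cell. Per the submitters' processing notes the tools were STAR 2.7 and Cell Ranger 4.0.0 with GRCh38, and the annotation release and strand setting are not given in the sources used here. GENCODE 44 supplied symbols by Ensembl identifier. Multiplets by hashtag (95 cells) and 690 assigned cells under 1000 genes were left out, and no doublet caller was run. Unlike in the study, cells were not filtered on mitochondrial share in the main analysis (174 kept cells had 15% or more).

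Phases came from Seurat 5.3.0 with its cc.genes lists (42 of 43 S genes and 52 of 54 G2M genes found), with histone genes kept out of the control pool. UMI counts were summed per flask and phase (6 sums, 1801 to 27205 UMIs per cell) and fitted in edgeR 4.0.16 (TMM, flask and phase as terms, filterByExpr, Benjamini-Hochberg) under R 4.3.3. DESeq2 1.42.0 served as an alternative. SplitA and SplitB are replicates 1 and 2, and the phases of a flask share its cells' culture, so the flask term pairs them. Python 3.11.15 with scipy 1.17.1 gave exact Poisson, binomial and conditional ratio intervals at 95%. The floor for a count of 0 was 3 counts per sum.

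Genes named were the 8 histone genes, other replication-dependent histone genes with at least 50 UMIs, at most 5 genes by absolute log2 fold from each of 3 lists (histone variants, histone RNA processing, chaperones) and the 10 genes most like H4C3. The genes and lists were chosen with earlier results of these data known. The score classes, the limit of 20 H4C3 UMIs per 10000 and the comparison with RNA ends were added after the data were seen. Some genes that these rules name are not reported here.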

Additional observations from a re-analysis of the deposited data

Results flagged for a closer look

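H4C3 was also found in cells left out of the main comparisons, part of which entered the alternative with a minimum of 500 genes (2617 cells in place of 2094). In the 95 multiplets it stood at 2070 CPM (exact 95% Poisson interval 1955 to 2187), against 4.99 CPM for a count of 3 in these cells. In the 280 SplitA singlets under 1000 genes it stood at 137 CPM (104 to 178; 3 counts equal 7.23 CPM), with a mean mitochondrial share of 32.8%. In the 410 SplitB singlets under 1000 genes it stood at 64.7 CPM (45.5 to 89.2; 3 counts equal 5.24 CPM), with a mean mitochondrial share of 35.8%.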

How the results depend on the processing

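The fold of H4C3 kept its direction and its call in all 3 contrasts under every alternative that gave a test. With cells thinned to 2000 UMIs before scoring, its log2 fold was 2.17 in S and 2.42 in G2M against G1, and with a minimum of 500 genes 2.58 and 2.82. Leaving out a flask gave values with no test: 2.86 to 3.09 in S against G1, 3.16 to 3.31 in G2M against G1 and -0.30 to -0.22 in S against G2M, with 38.9% to 41.3% of H4C3 UMIs in S cells and 2378 to 2404 CPM. The counts of genes called (2101 in S against G1, 3285 in G2M against G1 and 825 in S against G2M) fell to 632, 1032 and 192 with DESeq2 and to 763, 1285 and 228 with thinned cells. The share of H4C3 UMIs in S cells was 39.9% and was 44.1% with thinned cells. The H4C3 level over both flasks was 2393 CPM, and it was 2039 with thinned cells, 2483 without cells of 15% or more mitochondrial UMIs, 2262 with a minimum of 500 genes and 2429 with a hashtag limit of 100. These shifts exceed the spread between the flasks, and their cause was not tested. Thinned cells each carry the same weight in this level, whereas in the other settings deeper cells carry more. Over the called log2 folds of the 6 genes and the alternatives with a test, 144 values kept direction and call and 5 lost the call. The latter were H1-2 in S and in G2M with DESeq2, and H1-10 in S with DESeq2, thinned cells and 500 genes. H1-3 and H1-5 were too sparse to be tested with thinned cells, and DESeq2 gave no adjusted p for H1-5 in G2M against G1 or for either gene in S against G2M. In S against G2M, where neither was called, the updated cycle list turned the log2 fold of H1-2 from -0.15 to 0.024 and that of H1-5 from 0.41 to -0.026, and H1-5 stood at -0.25 without SplitA. H1-3 moved most when a flask was left out, with 3.66 to 7.57 in S and 3.65 to 7.05 in G2M against G1 (4.57 and 4.32 over both). The flask term is the replicate block of this design. Without it 2098, 3288 and 788 genes were called, and no call of the 6 genes changed. In the 4 score classes, thinned cells gave 601 CPM of H4C3 with neither score, 1964 with the S score alone, 2907 with the G2M score alone and 4466 with both. A limit of 10 or 40 H4C3 UMIs per 10000 in place of 20 gave 623 or 428 high cells in place of 516. Depth limits H1-4 and H2BC12 most, with 34 and 24 UMIs.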

Other observations

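H1-2 and H2AC6, both lower in S cells, met in the same SplitB cells more often than elsewhere. After thinning to 2000 UMIs, 9 SplitB cells held a UMI of both genes, where independence gives 2.71, and in SplitA 3 cells did, where it gives 1.53. Pearson's r between them was 0.163 in SplitB and 0.0851 in SplitA. The variance of H1-2 over thinned cells was 1.48 times its mean in SplitB and 0.974 times in SplitA. H3C10, a histone H3 gene that also was lower in S than in G1, had 51 UMIs in 34 SplitB cells and 18 UMIs in 18 SplitA cells. These were noticed in the data, and the difference between the flasks cannot be tested with 1 flask each.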
